A study of Mus musculus with 22 samples.

Results

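The 10 genes described here are adipocyte genes of the mammary fat pad, the fatty bed in which the ducts of the mouse mammary gland grow. They are Adipoq, Lep, Pnpla2, Lipe, Plin1, Cidec, Fabp4, Pparg, Cebpa and Ucp1. The positions analysed were cytosines of CpGs, with the 2 strands kept apart. They lay in the gene body or within 2 kb of any curated RefSeq transcription start site (TSS) of these genes. All had reads in all 22 samples. This gave 391 of the 1140639 positions covered in all samples. Coverage differed between the genes, with 155 positions in Cebpa, 73 in Pparg, 53 in Plin1, 31 each in Lipe and Pnpla2, 22 in Lep, 14 in Cidec, 8 in Adipoq and 2 each in Fabp4 and Ucp1. All 391 positions lay on a CpG of the reference genome. A CpG covered on both strands counts as 2 positions. The 155 positions of Cebpa lay on 128 CpGs, the 53 of Plin1 on 37, and the 31 each of Lipe and Pnpla2 on 26 and 27.

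Adipocytes store triglyceride in a lipid droplet, release it as fatty acid through a chain of lipases, and secrete hormones such as adiponectin and leptin. Their identity is set by the transcription factors PPARγ and C/EBPα, which act together on the other genes of the list. CpG methylation is read here as the percent of reads in which a cytosine was protected from bisulphite conversion. At CpG-poor promoters and in gene bodies it differs between cell types, while CpG-rich promoters (CpG islands) are unmethylated in most cell types.

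DNA came from snap-frozen mammary tissue, not from sorted cells, and was profiled by enhanced reduced representation bisulphite sequencing (ERRBS), which samples CpG-rich fragments of the genome. The PyMT group were F1 females on the FVB background, heterozygous for the MMTV-PyMT transgene, in which the mouse mammary tumor virus promoter drives polyoma middle T antigen mainly in mammary epithelium. They were taken at 6 weeks of age (hyperplasia, n = 2), 8 weeks (adenoma or mammary intraepithelial neoplasia, MIN, n = 3), 10 weeks (early carcinoma, n = 3) and 12 weeks (late carcinoma with lung metastasis, n = 2). The controls were healthy FVB females of the same ages (n = 3 at each). Week 6 PyMT samples were labelled as mammary gland and the later ones as tumor, so tissue type and age cannot be told apart within PyMT. In bulk DNA, a different mixture of cell types and a change of methylation within a cell type cannot be told apart, and this holds for every value below.

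Each sample had between 1314077 and 1435757 positions with at least 10 reads, at a mean coverage of 60.2 to 79.2 reads. The mean coverage of the 391 positions ranged from 20.9 to 177 reads. In a principal component analysis over all positions, the first component (46.6% of the variance) separated PyMT from FVB. The second (5.11%) was set by 1 control, FVB week 8 replicate 2, at 7290 against -1560 to 793 in the other samples. Calls without that control are given where they bear on the members.

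ERRBS measured the genes in stretches, and the largest changes lay in some of these. Between stretches no position was covered in all 22 samples, so how far a change ran along a gene is not known. Sequence is shown for the 5 members with the most differentially methylated CpGs (DMCs) at week 12, as the window with the most such CpGs outside UTR exons. Adipoq, with 2 such positions, was tied with Plin1 and Fabp4 and taken as the first in the list of members, and its 2 positions lie apart, so that its window holds the more upstream 1. Each is written 5′ to 3′ on the strand of the gene from the RefSeq reference (GRCm38, mm10), with the CpGs called at week 12 in capitals. The Pnpla2 window (chr7:141459560-141459668, plus strand) is the end of its last coding exon, up to the stop codon, and all 6 positions measured in it were less methylated in PyMT.
Pnpla2: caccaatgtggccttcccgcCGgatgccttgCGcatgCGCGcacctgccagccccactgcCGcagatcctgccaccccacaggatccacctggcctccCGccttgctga
The Lipe window (chr7:25380011-25380123, minus strand) also lies in the last coding exon, and all 8 positions measured in it were more methylated in PyMT.
Lipe: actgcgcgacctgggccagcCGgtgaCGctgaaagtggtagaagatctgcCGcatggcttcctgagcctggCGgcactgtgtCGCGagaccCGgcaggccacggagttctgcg
The Lep window (chr6:29060094-29060220, plus strand) is the promoter up to the base before the TSS, where 6 of 10 measured positions were called, all lower in PyMT.
Lep: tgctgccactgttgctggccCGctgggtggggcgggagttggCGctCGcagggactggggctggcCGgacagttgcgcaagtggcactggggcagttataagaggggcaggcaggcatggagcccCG
The Cidec window (chr6:113437088-113437279, minus strand) lies upstream of the gene, and all 4 of its positions were lower in PyMT.
Cidec: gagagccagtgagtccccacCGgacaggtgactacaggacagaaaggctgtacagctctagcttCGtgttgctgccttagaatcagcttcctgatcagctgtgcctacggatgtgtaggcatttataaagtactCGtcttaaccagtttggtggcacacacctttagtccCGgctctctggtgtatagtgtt
The Adipoq window (chr16:23144528-23144569, plus strand) holds a single CpG upstream of the gene, which was lower in PyMT.
Adipoq: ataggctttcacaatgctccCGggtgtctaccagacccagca

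In a read-level test at each position and age (likelihood-ratio test of methylated against unmethylated reads, q under 0.01 and a difference of at least 10 percentage points), the members held hyper-DMCs and hypo-DMCs at every stage. At week 6, 12 positions were hyper-DMCs and 34 hypo-DMCs, where 2.62% and 6.01% of all positions were called. At week 8 there were 13 and 29 (background 3.2% and 7.1%), at week 10 there were 17 and 38 (4.39% and 8.42%), and at week 12 there were 21 and 35 (4.44% and 8.53%). In all, 75 of the 391 positions were called at 1 or more ages, or 19.2%, against 20.3% of all positions. Of the 391, 10 (2.56%) were hyper-DMCs and 20 (5.12%) were hypo-DMCs at all 4 ages, against 1.05% and 3.27% of all positions. No member position was called in both directions, as 1842 of all positions were. Pnpla2 held 18 of the 20 persistent hypo-DMCs and Lipe held 9 of the 10 persistent hyper-DMCs, so these counts mostly describe a pair of loci. Both loci are shared with other genes. The 18 lie in a stretch of 20 positions, of which 19 are also in the region of the neighbouring gene Cracr2b. All Lipe positions are also in the region of the overlapping noncoding gene 4732471J01Rik. With mice rather than reads as units (limma at each position over the 4 ages, adjusted p under 0.05 and at least 10 points), 13 positions were higher and 38 lower in PyMT, with 3.52% and 7.98% of all positions called. The 13 were 10 in Lipe, 2 in Fabp4 and 1 in Cidec. The 38 were 20 in Pnpla2, 10 in Lep, 6 in Cidec and 1 each in Adipoq and Pparg.

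At the level of whole genes, the members did not move in 1 direction. Of the 8 members with at least 3 positions, Lipe, Plin1 and Pparg were higher in PyMT over the 4 ages and Pnpla2, Lep, Adipoq and Cidec were lower, while Cebpa did not pass the test (limma on gene means with 8 group means, adjusted p under 0.05). The higher ones differed by 13.6, 1.33 and 0.79 points in that order, and the lower ones by -29.0, -13.3, -8.33 and -6.19. These 3 higher and 4 lower calls stand beside 18.4% and 34.9% of the 18678 genes tested. At week 6 alone Lipe was called higher, and Pnpla2 and Adipoq lower (background 5.04% and 16.7%). At week 12 Lipe and Pparg were higher, and Pnpla2, Lep and Adipoq lower (12.8% and 24.1%). All 10 PyMT samples lay above all 12 controls for Lipe and below them for Pnpla2 and Adipoq, as they did for 4.72% and 13.4% of genes. The median difference of the 8 members was -3.09 points, against -0.0886 points for all genes. Without FVB week 8 replicate 2 the same counts were obtained, 3 higher and 4 lower.

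**Figure D1:**
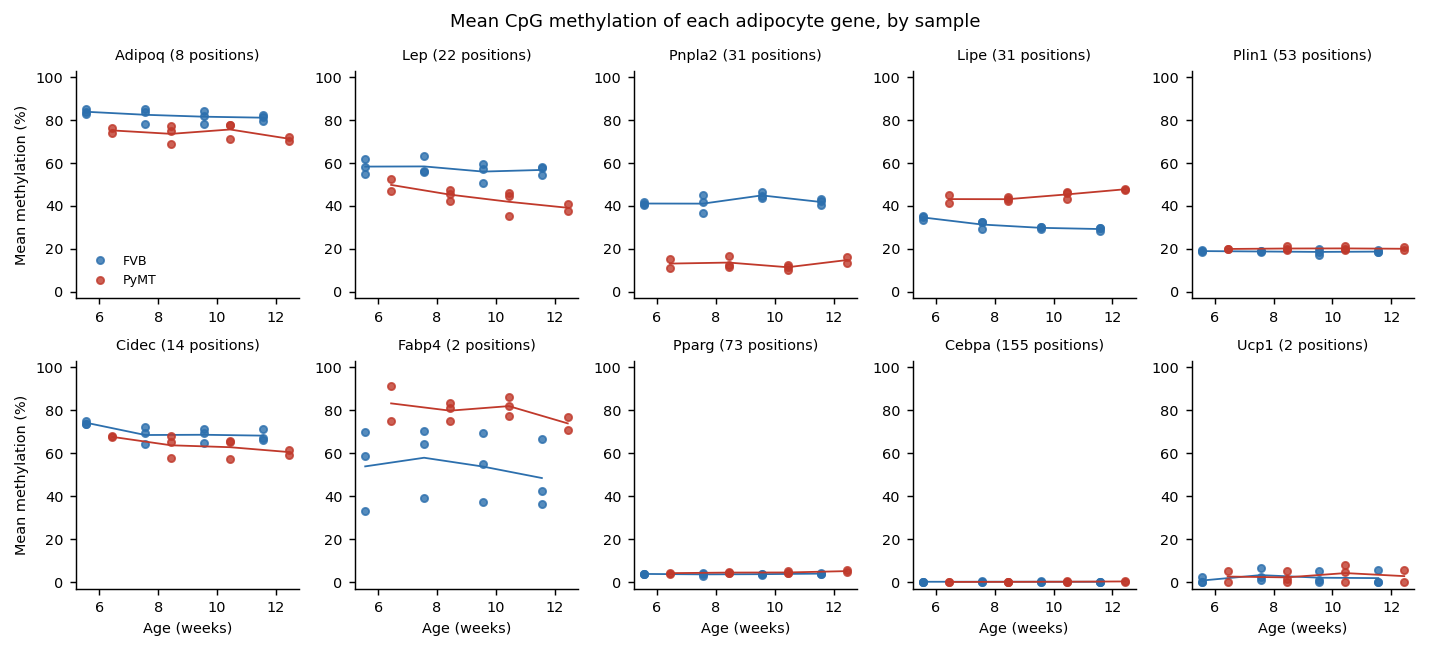
Mean methylation (percent, vertical axis) of each gene in each sample against age in weeks, with points for single mice, lines through group means, FVB in blue and PyMT in red. Pnpla2 was between 10.3% and 16.7% in PyMT and between 36.6% and 46.6% in FVB, Lipe was higher in every PyMT sample, and Cebpa and Ucp1 stayed near the floor in both.

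Adipoq, which encodes the hormone adiponectin, lies on chromosome 16 (23146536 to 23157968, plus strand). Its 8 positions averaged 68.7% at the lowest, 74.6% at the median and 77.8% at the highest in the 10 PyMT samples. In the 12 controls they averaged 78.3%, 82.5% and 85.3%. The groups did not overlap, although the gap between them was narrow. The difference over the 4 ages was -8.33 ± 1.24 points (SE, adjusted p = 2.2e-05), and it did not change detectably from week 6 to week 12 (-1.12 ± 3.68 points, adjusted p = 0.94). The largest single difference was at an intronic position 10507 bp after the TSS (23157043), which was 57.1% ± 9.71 (SD, n = 10) in PyMT and 82.6% ± 10.1 (SD, n = 12) in FVB. The CpG of the Adipoq sequence above, at -1988 bp from the TSS, was 19.5% ± 9.09 in PyMT and 30.9% ± 7.98 in FVB, and did not pass limma at the position (adjusted p = 0.089). These were the lowest levels in the gene. The promoter itself holds 0 CpGs in its 300-base RefSeq window and was not measured.

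Lep encodes leptin, the hormone by which fat mass is signalled to the brain, and lies on chromosome 6 (29060221 to 29073876, plus strand). Its promoter was partly methylated in control glands and less methylated in PyMT. Over all 22 positions, the week 6 values were 52.7% and 46.9% in PyMT, and 54.9%, 61.9% and 58.1% in FVB. At week 12 they were 37.6% and 40.7% in PyMT, and 58.3%, 54.4% and 57.6% in FVB. At both ages every PyMT sample was below every control, narrowly so at week 6. The difference over the 4 ages was -13.3 ± 1.59 points (adjusted p = 2.0e-06). It was -8.53 ± 3.36 at week 6 (adjusted p = 0.083), -13.1 ± 3.00 at week 8, -14.1 ± 3.00 at week 10 and -17.6 ± 3.36 at week 12 (adjusted p = 0.00056). The change from week 6 to week 12, -9.09 ± 4.75 points, did not pass the test (adjusted p = 0.43).

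Within the Lep promoter the loss was uneven from one CpG to the next. The 6 positions from -106 to -61 bp and the pair at -2 and -1 bp were lower, with differences from -28.4 to -18.96 points, and all 8 passed limma. The position at -62 bp was 24.5% ± 8.54 in PyMT and 51.6% ± 6.84 in FVB, with no overlap between samples. Between these lies a CpG at -52 and -51 bp on its 2 strands, within the letters ttgcgcaa of the sequence above (29060166 to 29060173), a C/EBP-type motif. It was 76.9% ± 11.6 in PyMT and 72.2% ± 10.5 in FVB on the plus strand, and 70.1% ± 13.9 and 69.8% ± 10.7 on the minus strand. The differences, 4.57 and 1.31 points, did not pass the test (adjusted p = 0.65 and 1). The motif, searched as TTGCGNAA on both strands, occurs in 0.798% of 32851 RefSeq promoter windows, and among the members' 13 promoter windows in that of Lep alone. No other motif was searched, and the match is a description of the letters. In the first intron, 1485 to 1540 bp after the TSS, 2 of 4 positions passed limma, both lower. The 4 averaged 30.5% to 44.7% in PyMT and 44.0% to 87.2% in FVB, the highest control being FVB week 8 replicate 2. Without that control the Lep difference was -12.7 points (adjusted p = 3.8e-06).

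Pnpla2 encodes adipose triglyceride lipase (ATGL), which takes the first fatty acid from triglyceride, and lies on chromosome 7 (141455188 to 141460743, plus strand). It showed the largest difference of the members. Its island near the TSS was unmethylated, and its 3′ end, methylated in control glands, was largely unmethylated in PyMT. The 20 positions from 141459041 to 141460551, which run from an intron near the 3′ end through the last 2 coding exons into the 3′ UTR, averaged 18.7% and 12.7% in PyMT at week 6, against 57.4%, 60.1% and 57.0% in FVB. At week 8 they averaged 21.3%, 15.7% and 13.1% in PyMT, and 50.7%, 63.3% and 59.0% in FVB. At week 10 the values were 11.7%, 13.1% and 15.3% in PyMT, and 65.2%, 64.4% and 61.5% in FVB. At week 12 they were 15.3% and 20.1% in PyMT, and 60.5%, 60.4% and 56.4% in FVB. The lower level was already present in hyperplasia, and no PyMT sample overlapped a control.

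Over its 31 positions the Pnpla2 difference was -29.0 ± 0.96 points (adjusted p = 6.4e-12), and it was -28.0 ± 2.02 at week 6 and -27.1 ± 2.02 at week 12, with no change detectable between them (0.90 ± 2.86, adjusted p = 0.94). In the gene body beyond 2 kb of the TSS, where 20% of genes were called higher and 46.4% lower, it was -40.8 ± 1.36 points over 22 positions (adjusted p = 1.7e-12). In the TSS window, where 17% were called higher and 17% lower, all 9 positions averaged 0.43% or less in each sample and the difference was -0.05 ± 0.07 points (adjusted p = 0.63). The strongest position, 4411 bp after the TSS in the sequence above, was 74.1% ± 9.13 in FVB and 14.2% ± 9.41 in PyMT. At 14 of the 31 positions all PyMT samples lay below all controls, as at 2.08% of all positions. A position in the 3′ UTR at 141459739 read 0 in all 22 samples, while the opposite strand of the same CpG was 15.8% in PyMT and 62.6% in FVB. Of the 20 positions at the 3′ end, 19 also lie within 2 kb of a TSS of the neighbouring gene Cracr2b. Without them 12 positions remained and the difference was -3.08 points, still called. The values belong to a sequence that both genes share.

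**Figure D2:**
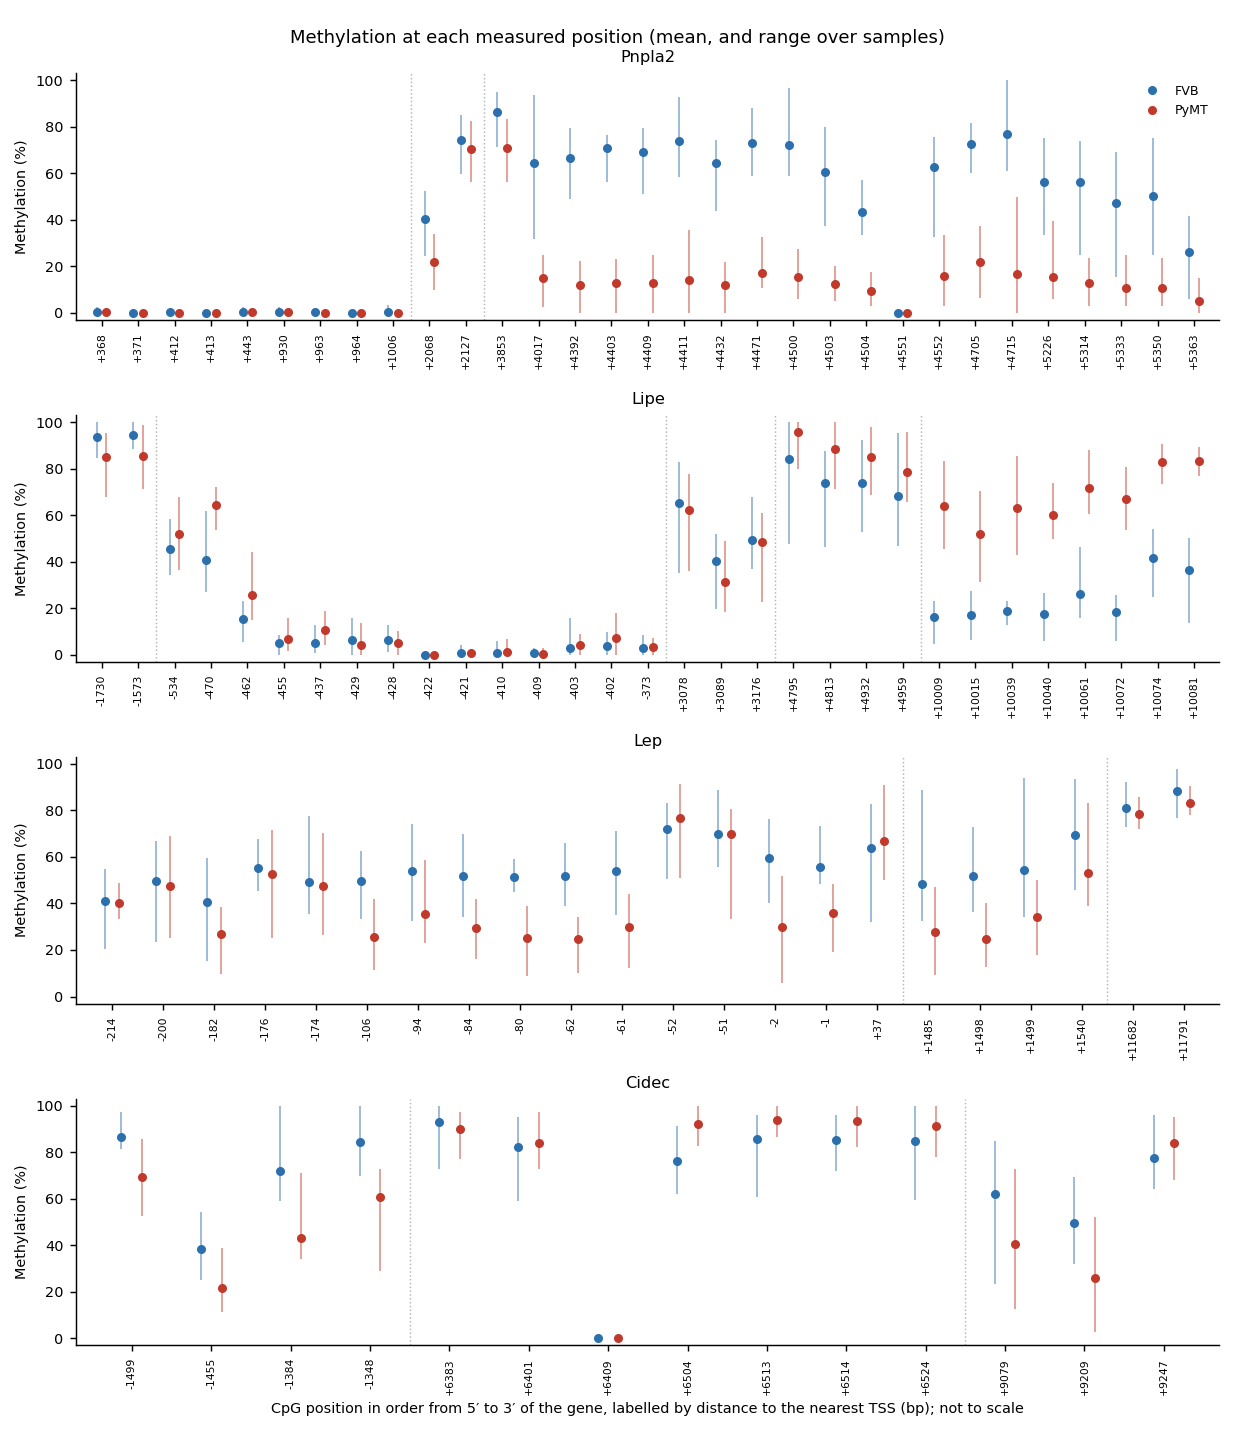
Methylation (percent, vertical axis) at each measured position of Pnpla2, Lipe, Lep and Cidec, in order from 5′ to 3′ and labelled by distance to the nearest TSS in bp, with points for the mean over 10 PyMT (red) or 12 FVB (blue) samples, bars from the lowest to the highest sample, and dotted lines between runs of positions more than 600 bp apart. The 3′ end of Pnpla2 was low in PyMT, the 3′ end of Lipe was high, and the Lep promoter was lower in PyMT on both sides of the CpG at -52 bp.

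Lipe encodes hormone-sensitive lipase, which follows ATGL in the breakdown of stored fat, and lies on chromosome 7 (25379527 to 25395987, minus strand). It changed in the opposite direction to Pnpla2, again at the 3′ end. The 8 positions from 25380031 to 25380103 in its last coding exon averaged 64.4% and 61.1% in PyMT at week 6, against 21.1%, 26.9% and 29.3% in FVB. At week 8 they averaged 61.3%, 58.0% and 72.1% in PyMT, and 27.2%, 13.3% and 27.6% in FVB, the lowest being FVB week 8 replicate 2. At week 10 the values were 72.0%, 72.1% and 71.9% in PyMT, and 23.3%, 25.3% and 20.3% in FVB. At week 12 they were 74.1% and 72.0% in PyMT, and 22.4%, 24.7% and 26.0% in FVB. The groups were far apart at every age. All 8 positions were hyper-DMCs at all 4 ages, and at all 8 every PyMT sample lay above every control, as at 0.654% of all positions.

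The Lipe difference over all 31 positions was 13.6 ± 0.58 points (adjusted p = 3.3e-11) and 25.9 ± 1.07 points in the gene body (adjusted p = 1.1e-11). It grew with stage, from 8.54 ± 1.21 at week 6 to 11.8 ± 1.09 at week 8, 15.5 ± 1.09 at week 10 and 18.5 ± 1.21 at week 12. The change between week 6 and week 12, 9.99 ± 1.72 points, passed the test (adjusted p = 0.0053), as it did upward for 1.79% and downward for 0.594% of genes, and Lipe was the only member of the 8 to do so. It did not pass in the TSS window alone (6.45 points, adjusted p = 0.15) or with reads pooled over positions (7.16 points, adjusted p = 0.65). Within each genotype, the week 12 minus week 6 difference was 4.59 ± 1.33 points in PyMT (adjusted p = 0.057) and -5.40 ± 1.09 points in FVB (adjusted p = 0.39), and neither passed alone. Lipe has 2 start sites, and all 16 TSS window positions lay before the upstream 1, from -1730 to -373 bp. None lay within 2 kb of the downstream start site, which was therefore not measured. In the TSS window the difference was small, 2.06 ± 0.71 points (adjusted p = 0.033), and its positions at -470 and -462 bp passed limma, both higher. The former was 64.2% ± 5.06 in PyMT and 40.6% ± 9.42 in FVB. The island positions closer to the TSS stayed at 10.4% or less on average in both groups. Other stretches differed in direction. The 4 positions from 4795 to 4959 bp averaged 86.8% ± 3.32 in PyMT and 74.9% ± 9.04 in FVB, with overlapping samples. The 2 positions at -1730 and -1573 bp were lower on average, at 85.2% ± 7.32 in PyMT and 93.9% ± 3.10 in FVB. So were the 3 intronic positions from 3078 to 3176 bp, at 47.3% ± 8.31 and 51.6% ± 9.02, with overlapping samples in both stretches. At week 12 alone the 2 positions averaged 92.2% in both groups. The 3 intronic positions then averaged 51.2% in PyMT and 41.4% in FVB. Across weeks 6, 8, 10 and 12 Lipe held 4, 0, 2 and 0 hypo-DMCs, beside 9, 10, 11 and 15 hyper-DMCs. All 31 positions also lie in the region of 4732471J01Rik, a noncoding gene that overlaps it on the opposite strand, so the values cannot be assigned to Lipe alone.

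Plin1 encodes perilipin 1, the coat protein that guards the adipocyte lipid droplet, and lies on chromosome 7 (79721164 to 79732776, minus strand). Its 53 positions averaged 19.4% at the lowest, 20.01% at the median and 21.3% at the highest in PyMT, and 17.1%, 18.8% and 20.01% in FVB. The samples overlapped, and the difference was 1.33 ± 0.36 points (adjusted p = 0.0048). With reads pooled over positions it was -0.33 points and did not pass (adjusted p = 0.84), so its sign depended on how positions were averaged. The 41 positions of a CpG-rich stretch at the 3′ end averaged 1.21% ± 0.32 in PyMT and 0.53% ± 0.34 in FVB. The 5 positions of another coding stretch averaged 90.2% ± 3.51 and 82.3% ± 7.53, and the largest single difference in the gene lay there, 12.5 points at 79726495 (adjusted p = 0.055). The 4 positions of the TSS window lay in an intron, 1786 to 1841 bp after the TSS, and the promoter itself was not measured. These 4 averaged 84.6% to 97.7% in PyMT and 83.4% to 97.3% in FVB, and differed by 0.62 ± 1.65 points (adjusted p = 0.84).

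Cidec encodes CIDEC (also called FSP27), which promotes the fusion of lipid droplets into the single large droplet of white fat, and lies on chromosome 6 (113424634 to 113435760, minus strand). Its 14 positions averaged 57.5% to 67.9% in PyMT and 64.1% to 75.2% in FVB, which overlapped, with a difference of -6.19 ± 1.44 points (adjusted p = 0.0015). At a minimum of 20 reads in all samples it was -2.88 points and did not pass (adjusted p = 0.11). Different stretches of the gene moved apart. The 4 upstream positions of the sequence above, from -1499 to -1348 bp of the TSS, averaged 33.4% at the lowest, 50.2% at the median and 56.8% at the highest in PyMT. They averaged 63.8%, 70.8% and 78.5% in FVB. No PyMT sample reached the lowest control, and the TSS window difference was -21.6 ± 2.49 points (adjusted p = 1.7e-06). The 10 positions of the gene body differed by -0.02 ± 1.96 points (adjusted p = 0.99). They include an intronic position at 113428355 that read 0.16% in PyMT and 0% in FVB on average, next to positions above 80%. Within it, a coding position at 113428260 was higher in PyMT (92.0% ± 5.91 against 76.2% ± 9.35), and a position at 113425685 was lower (40.4% ± 20.4 against 62.1% ± 17.5).

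Fabp4 encodes the fatty acid carrier of adipocytes (also called aP2), and lies on chromosome 3 (10204342 to 10208616, minus strand). Only 2 positions, at 10206038 and 10206063 in a coding exon, were covered, so it entered no test that asked for 3. They averaged 70.9% at the lowest, 79.3% at the median and 91.4% at the highest in PyMT, and 33.3%, 56.7% and 70.3% in FVB. The controls were spread widely within every age, and the lowest PyMT sample was just above the highest control. In the fit that kept genes with at least 1 position (17.9% higher and 35.3% lower of 19744 genes), the difference was 26.2 ± 5.49 points (adjusted p = 0.00065). Both positions passed limma alone, with 29.3 and 23.1 points (adjusted p = 0.0021 and 0.013).

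The transcription factor genes were almost unmethylated in both groups near the start sites that were measured. Pparg, the master regulator of fat cell formation, lies on chromosome 6 (115360951 to 115490401, plus strand), and 71 of its 73 positions fell in the CpG-rich region of its first start sites. These 71 averaged 1.66% to 3.40% in PyMT and 0.73% to 1.90% in FVB, a difference of 1.12 ± 0.18 points (adjusted p = 7.2e-05), small in size although it passed. Over all 73 positions the difference was 0.79 ± 0.15 points (adjusted p = 0.00034). The other 2 lie deep in an intron and ran the other way, and that at 115392434 was 72.9% ± 8.57 in PyMT and 89.1% ± 6.15 in FVB (adjusted p = 0.0016). Cebpa, which encodes C/EBPα and lies on chromosome 7 (35119293 to 35121928, plus strand), had 155 positions, of which the most methylated reached 9.52% in 1 sample. Its mean was 0.05% to 0.41% in PyMT and 0.04% to 0.34% in FVB, and the difference was 0.01 ± 0.05 points (adjusted p = 0.93). It held 0 DMCs in the read-level test. At an unadjusted p under 0.05, 1 of the 155 positions passed at week 6 and 7 at each later age, and no position reached q under 0.01.

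Ucp1 encodes the uncoupling protein of brown and beige fat and lies on chromosome 8 (83290348 to 83298456, plus strand). Its 2 positions, at -4 and 7 bp from the TSS, averaged 0% to 8.04% in PyMT and 0% to 6.67% in FVB. The difference was 0.97 ± 1.26 points (adjusted p = 0.56). Ucp1 was nearly unmethylated at its start site in all samples.

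**Figure D3:**
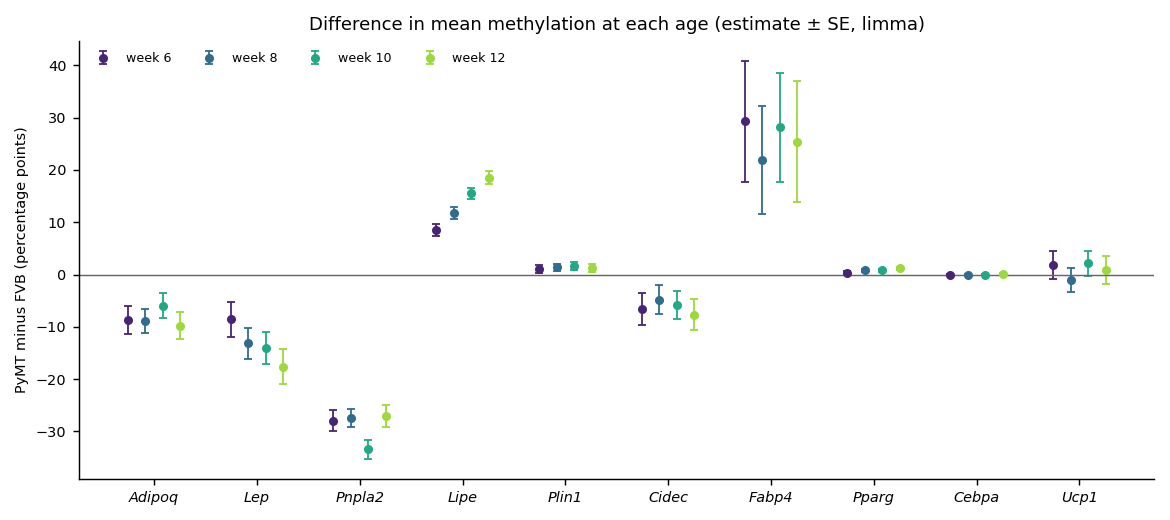
PyMT minus FVB difference in mean methylation (percentage points, vertical axis) of each gene at weeks 6, 8, 10 and 12, as limma estimates with bars of 1 SE, those of Fabp4 and Ucp1 from the fit that kept genes with at least 1 position. The Lipe differences rose from 8.54 to 18.5, those of Pnpla2 stayed between -33.4 and -27.1, and the bars of Fabp4 are wide.

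The CpG content of the promoters is given as a description. The 300-base RefSeq windows (250 bases before to 50 after a TSS) matched 9 of the 10 members, Fabp4 not among them, and held a median of 7 CpGs over all 32851 promoters. The first Pparg window held 44 CpGs and that of Cebpa 29, and both were almost free of methylation. Lep and the upstream Lipe window held 19 each, Pnpla2 18 and Ucp1 15, and of these the Lep promoter was methylated in controls (53.7% ± 3.08 over 15 upstream positions), while the measured positions near the other start sites were mostly under 10%. The windows of Cidec held 6 and 7, the 1 of Plin1 held 2, and that of Adipoq held 0. In the TSS windows as a whole, 7 members could be tested. Lipe and Pparg were called higher, and Lep and Cidec lower, where 17% of 16407 genes were called in each direction. Plin1, Pnpla2 and Cebpa did not pass.

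Among 50 other adipocyte genes (fatty acid and triglyceride synthesis, lipid droplet, insulin response, thermogenesis and adipogenic factors), 45 could be tested. Of these 11 were higher in PyMT and 17 lower, or 24.4% and 37.8%, against 18.4% and 34.9% of all genes. Their median difference was -0.32 points, and the range ran from -34.995 to 4.57. The 5 with the largest called differences were all lower. Thrsp, a regulator of fatty acid synthesis, was 24.7% in PyMT and 59.9% in FVB (-34.995 ± 3.41 points, 3 positions). Cidea, a lipid droplet protein of brown fat, was 19.5% and 35.6% (-16.1 ± 0.97). Cfd, which encodes adipsin, was 56.6% and 67.9% (-11.7 ± 2.10). Scd1, a fatty acid desaturase, was 13.1% and 22.8% (-9.70 ± 0.68). Srebf1, a regulator of lipid synthesis, was 11.7% and 19.8% (-8.07 ± 0.49).

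Genes of the other cell types of the gland were tested alike, and their values stand beside those of the members. Of all genes, 18.4% were called higher and 34.9% lower. These shares were 10.7% and 78.6% for luminal epithelial, 6.67% and 80% for leukocyte, and 8.33% and 66.7% for basal and myoepithelial genes. They were 20% and 46.7% for endothelial genes, nearer to those of all genes, and 38.5% and 23.1% for fibroblast genes. Of 28 luminal epithelial genes 3 were higher and 22 lower, with a median of -3.48 points. Their mean level was 19.5% to 21.6% in PyMT and 26.5% to 30.7% in FVB. Ehf (-40.4 ± 2.60) and Cldn4 (-28.9 ± 1.44), an epithelial transcription factor and a tight junction protein, changed most. Of 15 leukocyte genes 1 was higher and 12 lower, with a median of -10.6 points and a mean level of 49.7% to 54.7% against 57.8% to 60.7%, led by Laptm5 (-18.9 ± 1.499) and Itgam (-15.3 ± 1.21).

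Of 12 basal and myoepithelial genes 1 was higher and 8 lower (median -3.38, levels 42.3% to 45.3% in PyMT and 44.0% to 47.4% in FVB), with Tagln at 30.1 ± 1.53 and Myh11 at -12.8 ± 1.12. Of 15 endothelial genes 3 were higher and 7 lower (median -1.20, levels 42.9% to 44.5% and 44.3% to 45.6%), with Vwf at -10.3 ± 0.61 and Esam at 9.83 ± 0.80. Of 13 fibroblast genes 5 were higher and 3 lower (median 0.76, levels 32.8% to 35.02% and 32.2% to 34.2%), with Col1a1 at 14.4 ± 1.07 and Loxl1 at 13.7 ± 1.06. The mean level of the 8 adipocyte members was 31.3% to 34.8% in PyMT and 36.2% to 39.9% in FVB. The part of cell mixture, including loss of fat tissue, in the members' differences was not tested.

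**Figure D4:**
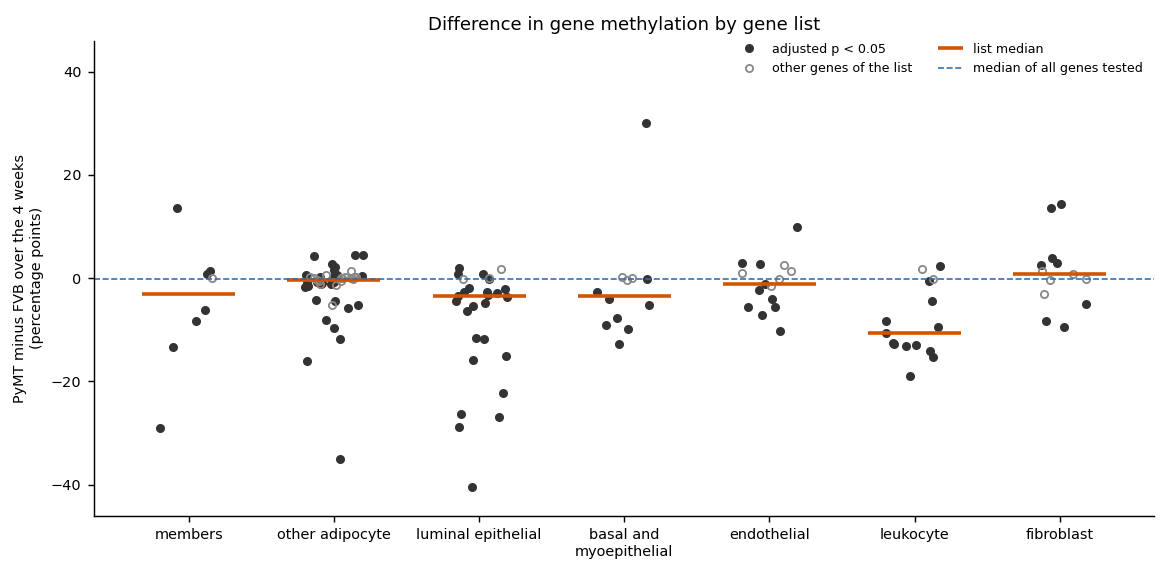
PyMT minus FVB difference over the 4 ages (percentage points, vertical axis) of each gene of the members and of 6 gene lists, with filled points for genes at adjusted p under 0.05, open points for the others, an orange bar for the list median and a dashed line for the median of all genes tested (-0.0886). The members fall on both sides of 0, with a median of -3.09, and the leukocyte list has the lowest median of those drawn, -10.6.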

How the data were processed

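The authors aligned ERRBS reads with Bismark to mm10 and deposited 1 table per sample of CpG positions with at least 10 reads, each with its coverage (a count of reads) and the percent of C and T, strands apart; per the labels each sample is a separate mouse. Methylated and unmethylated read counts were rebuilt from coverage and percent. Gene regions came from 45756 curated RefSeq transcripts (GRCm38.p6). Positions were tested by a likelihood-ratio test of reads with Benjamini-Hochberg q over 1140639 positions, which treats reads as replicates. Gene means (unweighted, at least 3 positions, 18678 genes) and single positions were tested with limma 3.58.1 (trended prior, 8 groups, 22 samples) in R 4.3.3, adjusted over all genes or positions. A difference averages the 4 ages equally, and its SE is the moderated one. The limma fit of gene means and the read-level test were each tried on simulated data.

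The members and gene lists were chosen with earlier results of these data known. Named genes were all 10 members and, among called genes, the 5 other adipocyte genes and 2 per other list with the largest differences over the 4 ages. The strongest position of a member was chosen by the same difference, and sequence windows by DMCs at week 12. Stretches of positions (gaps up to 600 bp) were formed after the values were seen and were not tested. The motif was likewise chosen late. The alternatives were another coverage minimum, merged strands, other thresholds, scales and regions, a replicate block, and leaving out each sample. Reads are pooled over the mice of a group, so read-level q values leave out the spread between mice. PCR duplicates cannot be recognised, so counting error may be understated too.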

Additional observations from a re-analysis of the deposited data

Results flagged for a closer look

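The Lipe difference between PyMT and FVB was larger at week 12 than at week 6 by 9.99 ± 1.72 points (limma interaction contrast, adjusted p = 0.0053), which set it apart as a difference between ages. PyMT samples were 45.2% and 41.2% at week 6 and 47.5% and 48.1% at week 12, and FVB samples were 34.9%, 35.4% and 33.7% and then 28.5%, 29.6% and 29.8%. All 31 positions also lie in the region of 4732471J01Rik. With groups of 2 or 3 mice, no test for single outlying samples was made.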

How the results depend on the processing

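The directions of the member gene calls held in all alternatives run except for Plin1, at -0.33 points with reads pooled over positions (adjusted p = 0.84). Counts of DMCs moved by over 1.5 times in these cases. With mice as units, hyper-DMCs numbered 7, 8, 10 and 9 at weeks 6, 8, 10 and 12, and hypo-DMCs 13, 14, 23 and 21, where 0.344%, 0.897%, 1.68% and 1.81%, and 1.29%, 2.61%, 4% and 3.91% of all positions were called. Without positions shared with another gene they were 3, 3, 6 and 6, and 12, 11, 18 and 17. All 31 Lipe positions and 19 Pnpla2 positions were then left out. The shares of all positions, which kept shared ones, were 2.62%, 3.2%, 4.39% and 4.44%, and 6.01%, 7.1%, 8.42% and 8.53%. With a difference of at least 25 points there were 8 hyper-DMCs at week 8, 12 at week 12 and 25 hypo-DMCs at week 10 (1.05%, 1.82% and 4.05% of all positions). At a coverage minimum of 20 reads there were 21 hypo-DMCs at week 6 and 23 at week 12 (6.25% and 8.69%). With positions covered in all samples of the week there were 21 hyper-DMCs at week 8 (3.13%). The count of members called lower was 2 in the TSS windows alone, 2 in the gene bodies alone and 2 at 20 reads (17%, 46.4% and 33% of all genes), where fewer members or positions could be tested. The growth of the Lipe difference was 6.45 points in the TSS window (adjusted p = 0.15) and 7.16 points with pooled reads (adjusted p = 0.65), and the cause was not tested.

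With each sample left out in turn, 3 members were called higher and 4 lower in every fit, and the Lipe growth ranged from 8.02 to 11.95 points. Without FVB week 8 replicate 2 there were 10 hyper-DMCs and 22 hypo-DMCs at week 8 (2.51% and 5.83% of all positions). No link was seen between PyMT and FVB samples with the same replicate number (correlations of their deviations from group means from -0.13 to 0.083 over 10 pairs, none over 0.1). Deviations within groups of 2 or 3 mice cancel, so this check cannot exclude a link by number. With the replicate block 3 members were higher and 4 lower (18.2% and 34.7% of all genes), and the Lipe growth was 9.80 points (adjusted p = 0.012). Hyper-DMCs and hypo-DMCs then numbered 16 and 33 at week 12 (4.08% and 7.74% of all positions). With 2 or 3 mice a group, and 2 to 155 positions a gene, differences of small genes such as Fabp4 rest on few reads.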
